A study of Homo sapiens with 8 samples.

Results

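Pomalidomide and GNE-781 were compared between 2 multiple myeloma lines for their effect on open chromatin, and the question was which peaks answered a drug differently in JJN3 and in KMS11. All 8 libraries of the count table were used, and of its 62528 peaks the 62234 that passed the filter on low values were tested. JJN3 and KMS11 are established human lines grown from myeloma, a cancer of plasma cells. Cells of each line were kept for 48 h with pomalidomide at 200 nM, with pomalidomide at 200 nM and GNE-781 at 40 nM together, with GNE-781 at 40 nM, or with the solvent DMSO, and each line and treatment has 1 library. The design text of the series names BATF or eGFP overexpression, but the labels of these 8 libraries give only the line and the treatment, so whether the cells carried either construct is not stated. Since each line is a single cell line, its name stands for everything in which the lines differ.

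Pomalidomide binds cereblon, the substrate receptor of a ubiquitin ligase that also contains DDB1 and CUL4, and turns this ligase towards the lymphoid zinc finger factors IKZF1 (Ikaros) and IKZF3 (Aiolos), which are then degraded. In plasma cells these factors help maintain IRF4 and MYC, on which myeloma cells depend. GNE-781 occupies the bromodomain of EP300 and that of its paralogue CREBBP, acetylating coactivators that sit at enhancers. ATAC-seq reads both drugs out as the number of transposase insertions in a peak, so it reports accessibility and neither the amount of a protein nor transcription.

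The difference tested is the response in JJN3 minus the response in KMS11 on the log2 scale, where a response is the drug's effect over the 2 libraries of a line that contain it and the 2 that do not. Levels are in CPM, the counts relative to a library's total after scaling of these totals by the trimmed mean of M-values (TMM). Calls required an adjusted p below 0.05 in the quasi-likelihood test of edgeR, adjusted by Benjamini-Hochberg over all peaks, and every adjusted p given is of that kind. With 1 library per line and treatment, the error of a difference is the departure of the 2 drugs from additivity within each line, estimated largely from all peaks together. Whether the libraries stem from separate cultures is not stated in the labels, so p-values here cover only the spread among these samples, and part of it may be technical.

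At each treatment the JJN3 library was shallower than the KMS11 one, with 1366628 to 3218581 counts in JJN3 and 2981408 to 5435673 counts in KMS11. Within each line both libraries with pomalidomide were deeper than both without it (at least 2060036 against at most 1582277 counts in JJN3, and at least 4586400 against at most 3786690 counts in KMS11). Depth thus moves with the line and with pomalidomide and cannot be told apart from them. The median SE of a line difference was 0.52 for pomalidomide and 0.51 for GNE-781 on the log2 scale. Promoter peaks took 47.5% to 50.0% of the counts in JJN3 and 48.4% to 50.9% in KMS11. Promoters of 6 of 7 plasma cell markers had peaks, with summed levels of 183 to 192 CPM in JJN3 and 193 to 214 CPM in KMS11, and TNFRSF17 had no promoter peak. Of the B cell identity genes with a peak, 13 of 16 had a promoter peak. Their sums were 247 to 279 CPM in JJN3 and 275 to 329 CPM in KMS11. They run over 13 genes and those of the plasma cell markers over 6, so the sums are not comparable between lists. The promoter of FGFR3, a receptor gene that a translocation activates in KMS11, had 2.91 to 6.41 CPM in JJN3 and 14.9 to 20.0 CPM in KMS11. The other genes listed as line-defining did not all go this way. MAF was higher in JJN3 (73.7 to 111 CPM, against 55.1 to 62.3 CPM in KMS11). WHSC1 overlapped between the lines (60.9 to 74.6 CPM in JJN3, 56.6 to 65.6 CPM in KMS11). CCND2 had at most 10.2 CPM in JJN3 and at least 10.7 CPM in KMS11. The 4 genes summed to 151 to 197 CPM in JJN3 and 138 to 154 CPM in KMS11. Of the T and NK cell markers with a peak, 3 of 9 had a promoter peak (36.5 to 42.0 CPM summed in JJN3, 81.8 to 93.1 CPM in KMS11). These were CD8A (18.6 to 27.6 CPM in JJN3, 43.1 to 48.9 CPM in KMS11), LCK (7.66 to 15.8 and 28.8 to 40.1 CPM) and GATA3 (1.45 to 5.66 and 6.43 to 9.37 CPM). CD3E, CD2, CD7, TRAC, PRF1 and KLRD1 had none. Myeloid markers had promoter peaks at 3 of 6 genes (45.5 to 60.6 CPM in JJN3, 67.3 to 81.2 CPM in KMS11), erythroid markers at 2 of 5 (40.4 to 61.6 CPM in JJN3, 57.6 to 70.1 CPM in KMS11), and stromal and endothelial markers at 4 of 12 (68.3 to 88.7 CPM in JJN3, 69.3 to 92.9 CPM in KMS11). The part of these markers in the results was not tested.

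Within the pathway of pomalidomide itself, a peak at an internal start of IKZF1 rose in JJN3 and had a called line difference. RefSeq lists 3 starts for this gene in its promoter table, and 2 of their upstream windows lie under a tested peak. Both windows are on the plus strand of GRCh38.p14 and are shown because the peak over one had a called line difference and the peak over the other did not: the first is chr7:50304466-50304715, under the peak chr7:50304118-50305016, and the second is chr7:50308450-50308699, of which 182 bases lie under the called peak chr7:50308518-50309086. First and internal name the order of these 2 windows along the gene. Distances of peaks are taken from starts in the authors' annotation, which can differ from the RefSeq starts. Capitals mark matches to TGGGAA (the core of the Ikaros motif), TGTGGT (RUNX) or GGGCGG (GC box) on either strand.
First start: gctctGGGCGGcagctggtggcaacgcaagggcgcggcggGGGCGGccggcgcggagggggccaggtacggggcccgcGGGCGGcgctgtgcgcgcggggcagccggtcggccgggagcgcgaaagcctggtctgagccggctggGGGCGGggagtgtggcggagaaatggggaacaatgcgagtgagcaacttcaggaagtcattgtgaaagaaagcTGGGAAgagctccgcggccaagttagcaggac
Internal start: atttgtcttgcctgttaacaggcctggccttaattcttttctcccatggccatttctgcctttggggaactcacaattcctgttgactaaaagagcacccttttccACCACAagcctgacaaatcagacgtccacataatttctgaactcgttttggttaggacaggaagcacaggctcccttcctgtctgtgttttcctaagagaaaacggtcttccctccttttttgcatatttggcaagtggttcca

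The window of the first start is 71.2% G and C and holds 4 GC boxes and 1 Ikaros core, and that of the internal start is 45.2% G and C and holds neither, with 1 RUNX match. Among the 250 upstream bases of 35116 RefSeq promoters, 42.6% hold a GC box, 20.8% the Ikaros core and 11% the RUNX letters. An E-box, CANNTG, which 61.8% of these promoters hold and which is left in lower case, had 1 match in each window. No match was found in either window for the ETS motif CCGGAAG, held by 8.52% of promoters. The same was true of the AP-1 motif TGANTCA, held by 6.57% of promoters. The GATA letters AGATAA, in 9.17% of promoters, and the MAF half-site TGCTGA, in 14% of promoters, were also without a match, as were the interferon response (3.02%) and NF-kB (0.527%) motifs. A match describes the letters and is no measurement of binding.

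At the internal start the called peak of IKZF1 had 44.3 CPM with pomalidomide, 27.2 CPM with both drugs, 10.9 CPM with GNE-781 and 12 CPM with DMSO in JJN3. KMS11 had 11.6, 8.55, 8.41 and 13.5 CPM in the same 4 treatments. The 2 JJN3 libraries with pomalidomide thus stand above all other libraries. Those of KMS11 with pomalidomide lie between its GNE-781 library and its DMSO library, and both are below DMSO. The peak rose in JJN3 by 1.62 ± 0.29 (log2 ± SE, adjusted p = 8.84e-05), its response in KMS11 was -0.11 ± 0.26 (adjusted p = 0.894), and the line difference of 1.73 ± 0.39 passed (adjusted p = 0.0389). In counts this rests on 133 and 56 reads with pomalidomide against 17 and 16 without it in JJN3. Over 18 alternative settings the difference ranged from 1.43 to 1.99 and was called in 7.

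The 6 other peaks nearest to IKZF1 did not pass. Over the first start the line difference was 0.22 ± 0.30 (adjusted p = 0.923). A peak 3.6 kb upstream, chr7:50300403-50300646, rose in JJN3 by 1.74 ± 0.39 (adjusted p = 0.00408) and had a response of 0.43 ± 0.42 in KMS11, but the difference of 1.30 ± 0.60 did not pass (adjusted p = 0.571). IKZF3, the other main substrate, had 9 tested peaks with line differences from -0.82 to 0.82, and none passed. Of these, the peak chr17:39757996-39758274 rose in both lines, by 1.25 ± 0.35 in JJN3 (adjusted p = 0.0333) and 0.97 ± 0.26 in KMS11 (adjusted p = 0.00918).

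DDB1, the adaptor of the cereblon ligase, was nearest to a called peak with the other sign. This intergenic peak, chr11:61297459-61298184, lies 35182 bp downstream of the annotated start of DDB1 and outside the gene. It carries the name of its nearest gene only, and whether it acts on DDB1 was not tested. In JJN3 it had 12 CPM with pomalidomide, 16.0 CPM with both drugs, 7.69 CPM with GNE-781 and 5.26 CPM with DMSO, and in KMS11 34.9, 31.0, 2.91 and 2.33 CPM. All 4 libraries with pomalidomide exceed those without it in the same line, and the gap is wider in KMS11. The response was 1.11 ± 0.38 in JJN3 (adjusted p = 0.118) and 3.65 ± 0.30 in KMS11 (adjusted p = 2.06e-20), a difference of -2.55 ± 0.55 (adjusted p = 0.0293). At the promoter peak of DDB1 the difference was -0.03 ± 0.31 (adjusted p = 0.995). At the distal peak 9 reads were counted in each KMS11 library without pomalidomide. The difference ranged from -2.78 to -2.25 over 18 alternative settings and was called in 8.

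**Figure D1:**
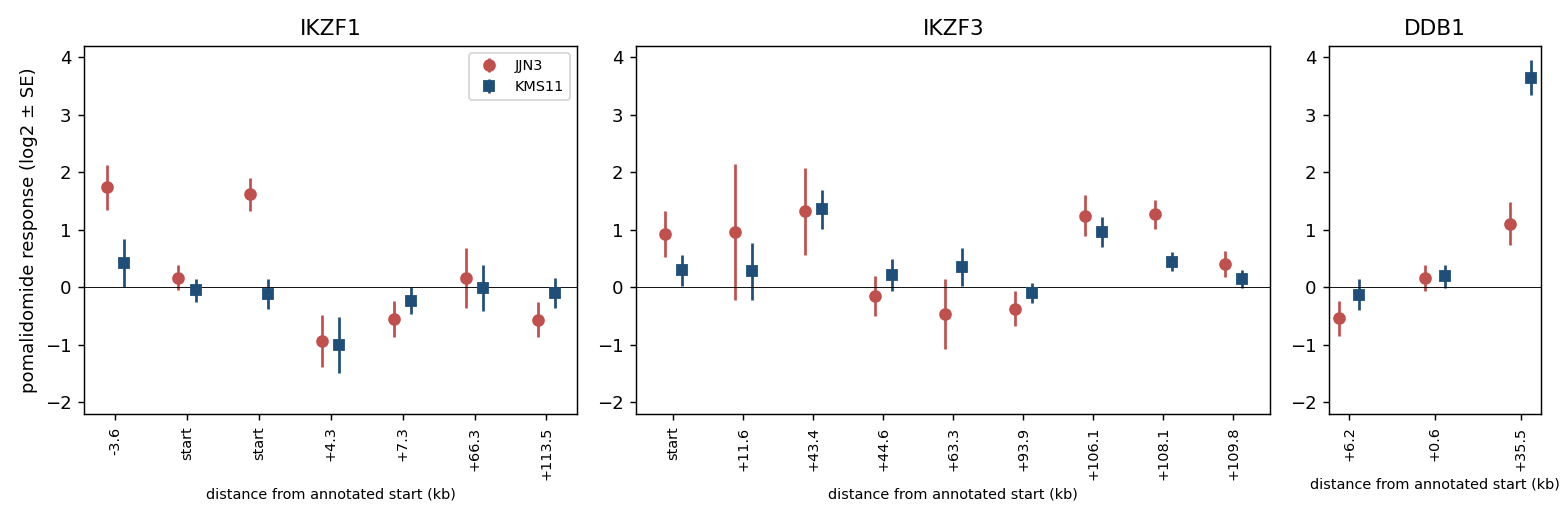
Pomalidomide response (log2, fitted value ± SE) of every tested peak nearest to IKZF1, IKZF3 and DDB1 in JJN3 (circles) and KMS11 (squares), in order along each gene, with the distance of the peak centre from the annotated start of its nearest transcript in kb on the horizontal axis ("start" where the peak covers it). The lines part at the internal start of IKZF1 (1.62 in JJN3, -0.11 in KMS11) and at the distal DDB1 peak (1.11 in JJN3, 3.65 in KMS11).

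Across the genome, 42 of 62234 peaks (0.0675%) had a called line difference in the pomalidomide response, 12 positive (0.0193%) and 30 negative (0.0482%). A joint test of both interactions called 46 peaks (0.0739%). At an unadjusted p under 0.05 there were 2514 positive and 2459 negative differences. The 42 peaks lay on 16 chromosomes and were nearest to 42 genes, so no gene had a second called peak. Of them 3 were promoter peaks (7.14%), against 25.6% of all tested peaks, 26 overlapped a gene and 13 were intergenic. The called peaks rest on every JJN3 library: without the JJN3 pomalidomide or the JJN3 DMSO library 1 peak was called, without the JJN3 combination or GNE-781 library 8 each, and without the KMS11 pomalidomide library 20. Leaving out a library also removes 1 of the 2 values with or without the drug in that line. By method, 1 peak was called with cyclic loess offsets, 1 with limma-voom, 0 with DESeq2 (723 at an unadjusted p under 0.05) and 0 after thinning to the smallest library (3985 unadjusted). None of the 18 named pomalidomide calls held with DESeq2, after thinning, or without the JJN3 pomalidomide or DMSO library.

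The 30 negative differences had a median response of -0.72 in JJN3 and 1.61 in KMS11. Of these, 23 were called in KMS11 alone, 5 in JJN3 alone, and 2 in both lines with opposite signs. The 12 positive differences had a median response of 1.48 in JJN3 and -0.75 in KMS11, with 8 called in JJN3 alone, 2 in KMS11 alone and 2 in opposite directions. These medians describe peaks chosen for their difference. For each of the 42 peaks, the difference had the same sign when taken from pomalidomide alone against DMSO and from the combination against GNE-781, 2 values that share no library. The same held for 52% of all tested peaks, and calling favours such peaks. Across all tested peaks the line difference correlated between these backgrounds with a Pearson r of 0.13, and with 0.09 across the peaks at 5 CPM or more in each line, as a description over peaks that share libraries.

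**Figure D2:**
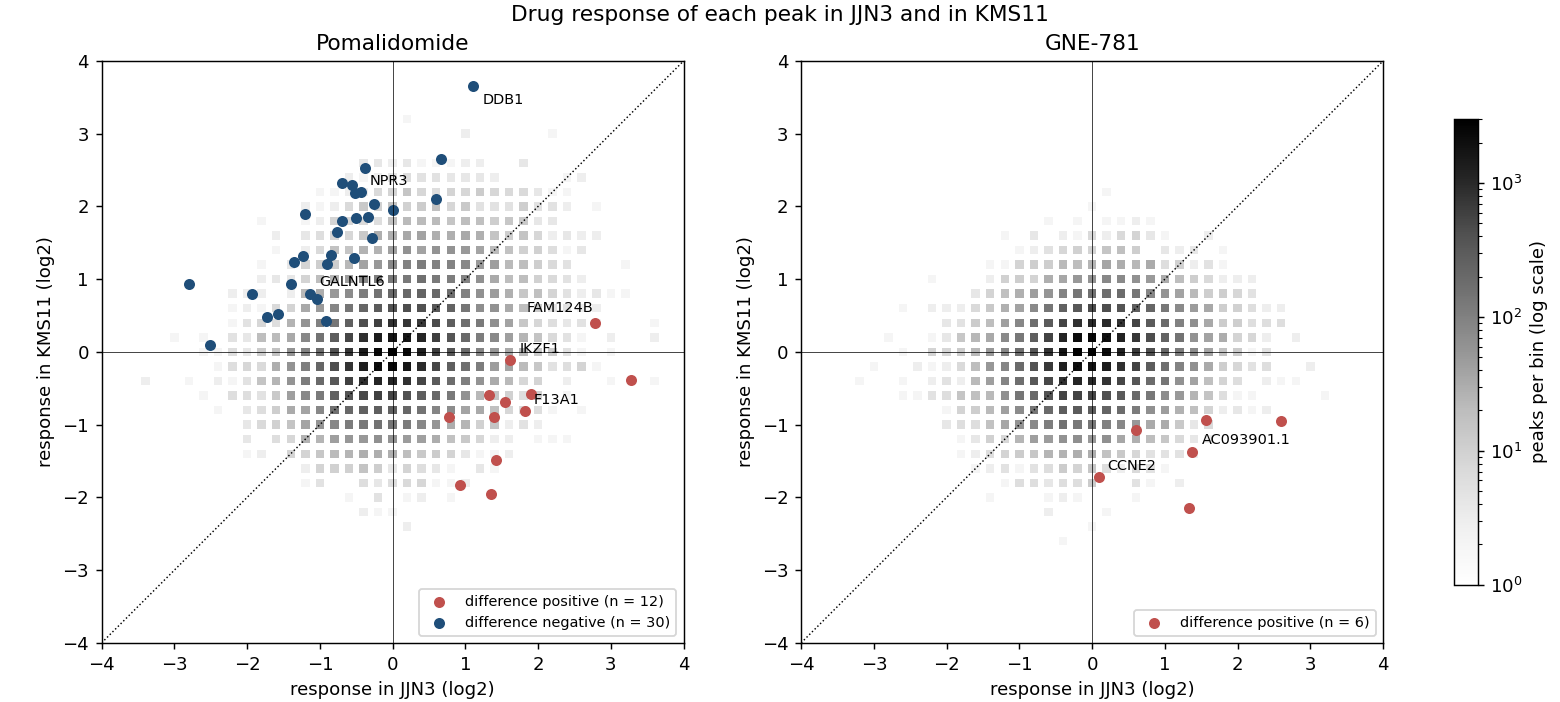
Response of every tested peak to pomalidomide (left) and GNE-781 (right), log2 in JJN3 on the horizontal and in KMS11 on the vertical axis, with grey squares for the number of peaks per bin (log scale), coloured points for peaks with a called line difference and a dotted line for equal responses. Outside the axes lie 41 peaks for pomalidomide and 11 for GNE-781; 30 called peaks lie above the dotted line and 12 below it on the left, and 6 below it on the right.

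The smallest p belonged to a peak in NPR3, which encodes the clearance receptor for natriuretic peptides. The peak, chr5:32785432-32786242, in JJN3 had 9.33 CPM with pomalidomide, 6.30 CPM with both drugs, 7.69 CPM with GNE-781 and 13.5 CPM with DMSO, and in KMS11 it had 31.7, 33.5, 6.79 and 7.25 CPM. In JJN3 the groups with and without pomalidomide overlap, and in KMS11 they do not. The response was -0.44 ± 0.37 in JJN3 (adjusted p = 0.716) and a rise of 2.2 ± 0.24 in KMS11 (adjusted p = 1.12e-12), with a difference of -2.64 ± 0.46 (adjusted p = 0.00351). The NPR3 call held in 14 of 18 alternative settings, and it was lost without the JJN3 pomalidomide or DMSO library, with DESeq2 and with libraries thinned to 1 depth. A second NPR3 peak about 88.0 kb from the start, chr5:32798427-32798753, had a difference of -2.12 ± 0.77 that did not pass (adjusted p = 0.376), and the promoter peak had 0.48 ± 0.31 (adjusted p = 0.749).

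KALRN encodes kalirin. Its intragenic peak chr3:124567111-124567799 in JJN3 had 8, 10.2, 10.9 and 12 CPM with pomalidomide, both drugs, GNE-781 and DMSO, and in KMS11 36.0, 13.7, 7.44 and 5.95 CPM. The JJN3 libraries lie close together, and among those of KMS11 pomalidomide alone is highest by a wide margin. The response was -0.34 ± 0.37 in JJN3 and 1.85 ± 0.27 in KMS11 (adjusted p = 6.15e-08), a difference of -2.2 ± 0.47 (adjusted p = 0.0293). Taken from pomalidomide alone the difference was -3.03, and on top of GNE-781 it was -0.92. Of the 15 tested peaks nearest to KALRN, this one was called.

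An intergenic peak 3.3 kb upstream of FMO4, a flavin-containing monooxygenase gene, at chr1:171310630-171311158, had 10.7, 16.0, 12.2 and 14.3 CPM in JJN3 with pomalidomide, both drugs, GNE-781 and DMSO. KMS11 had 25.9, 24.0, 6.14 and 6.73 CPM. The response was 0.00 ± 0.33 in JJN3 (adjusted p = 1), the peak rose in KMS11 by 1.95 ± 0.26 (adjusted p = 2.20e-09), and the difference was -1.95 ± 0.43 (adjusted p = 0.0293).

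A promoter peak of the gene entry ENSG00000279348.1, chr2:216210855-216211647, had 4, 7.27, 8.34 and 7.52 CPM in JJN3 in the same order of treatments and 29.6, 25.6, 9.06 and 6.47 CPM in KMS11. The response was -0.51 in JJN3 (adjusted p = 0.717), the rise in KMS11 was 1.84 ± 0.25 (adjusted p = 5.48e-09), and the line difference was -2.35 ± 0.52 (adjusted p = 0.0293). RP11-2P2.1 (-2.49 ± 0.52), RP11-475O6.1 (-2.11 ± 0.44), RP11-879F14.1 (-2.90 ± 0.61) and CTD-2351A8.1 (-1.82 ± 0.35) had differences of the same kind at distal peaks, with adjusted p from 0.0109 to 0.0265. Their JJN3 responses lay between -0.90 and -0.38 and did not pass, and each rose in KMS11, by 1.80, 1.21, 2.53 and 1.29 in this order.

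A peak in PNCK, a gene for a calcium and calmodulin-dependent kinase, fell in JJN3 and was not called in KMS11. In JJN3 this peak, chrX:153677610-153677918, had 6.66 CPM with pomalidomide, 9.70 CPM with both drugs, 16.7 CPM with GNE-781 and 31.6 CPM with DMSO, and in KMS11 12.2, 5.52, 4.53 and 7.76 CPM. It fell by 1.58 in JJN3 (SE 0.33, adjusted p = 0.00142), with a response of 0.52 ± 0.32 in KMS11 (adjusted p = 0.417) and a difference of -2.10 ± 0.46 (adjusted p = 0.0293). A peak nearest to the pseudogene COX7A2P2, chr4:96993319-96994027, had a response of -1.04 ± 0.33 in JJN3 (adjusted p = 0.0794) and rose in KMS11 by 0.73 ± 0.18 (adjusted p = 0.00303), with a difference of -1.77 ± 0.38 (adjusted p = 0.0267).

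Among positive differences the smallest p was at F13A1, which encodes the A subunit of coagulation factor XIII. Its intragenic peak chr6:6218412-6219017 in JJN3 had 25.3 CPM with pomalidomide, 17.0 CPM with both drugs, 5.77 CPM with GNE-781 and 6.01 CPM with DMSO, and in KMS11 5.57, 3.38, 8.41 and 7.25 CPM. The treatments separate in both lines and run in opposite directions. The rise in JJN3 was 1.82 ± 0.38 (adjusted p = 0.00123), the response in KMS11 was -0.81 ± 0.33 (adjusted p = 0.148), and the difference was 2.63 ± 0.51 (adjusted p = 0.0109). Another F13A1 peak, chr6:6229967-6230902, differed the other way without passing (-1.22 ± 0.32, adjusted p = 0.106) and rose in KMS11 by 0.80 ± 0.18 (adjusted p = 0.00135).

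In FAM124B the peak chr2:224395838-224396413 had 24.7, 41.7, 5.13 and 4.51 CPM in JJN3 with pomalidomide, both drugs, GNE-781 and DMSO, and 4.29, 11.8, 6.47 and 5.18 CPM in KMS11. Its rise in JJN3 of 2.78 ± 0.36 (adjusted p = 3.86e-08) exceeded the KMS11 response of 0.40 ± 0.32 by 2.38 ± 0.51 (adjusted p = 0.0293). CTIF encodes a factor of the cap-binding complex that acts in the first round of translation. Its peak chr18:48563874-48564459 had 37.3, 24.2, 10.3 and 14.3 CPM in JJN3 and 6.22, 4.81, 7.76 and 8.80 CPM in KMS11, and rose in JJN3 by 1.32 ± 0.29 (adjusted p = 0.00375), with a difference of 1.90 ± 0.43 (adjusted p = 0.0360). In TMEM2, a gene for a hyaluronan-degrading surface protein, the peak chr9:71783013-71783699 rose in JJN3 by 1.90 ± 0.53 (adjusted p = 0.0331), with 1 and 6 reads in the libraries without pomalidomide, and the difference was 2.48 ± 0.56 (adjusted p = 0.0377). At this peak every JJN3 level, 0.752 to 12.1 CPM, was below every KMS11 level, 17.6 to 32.0 CPM.

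**Figure D3:**
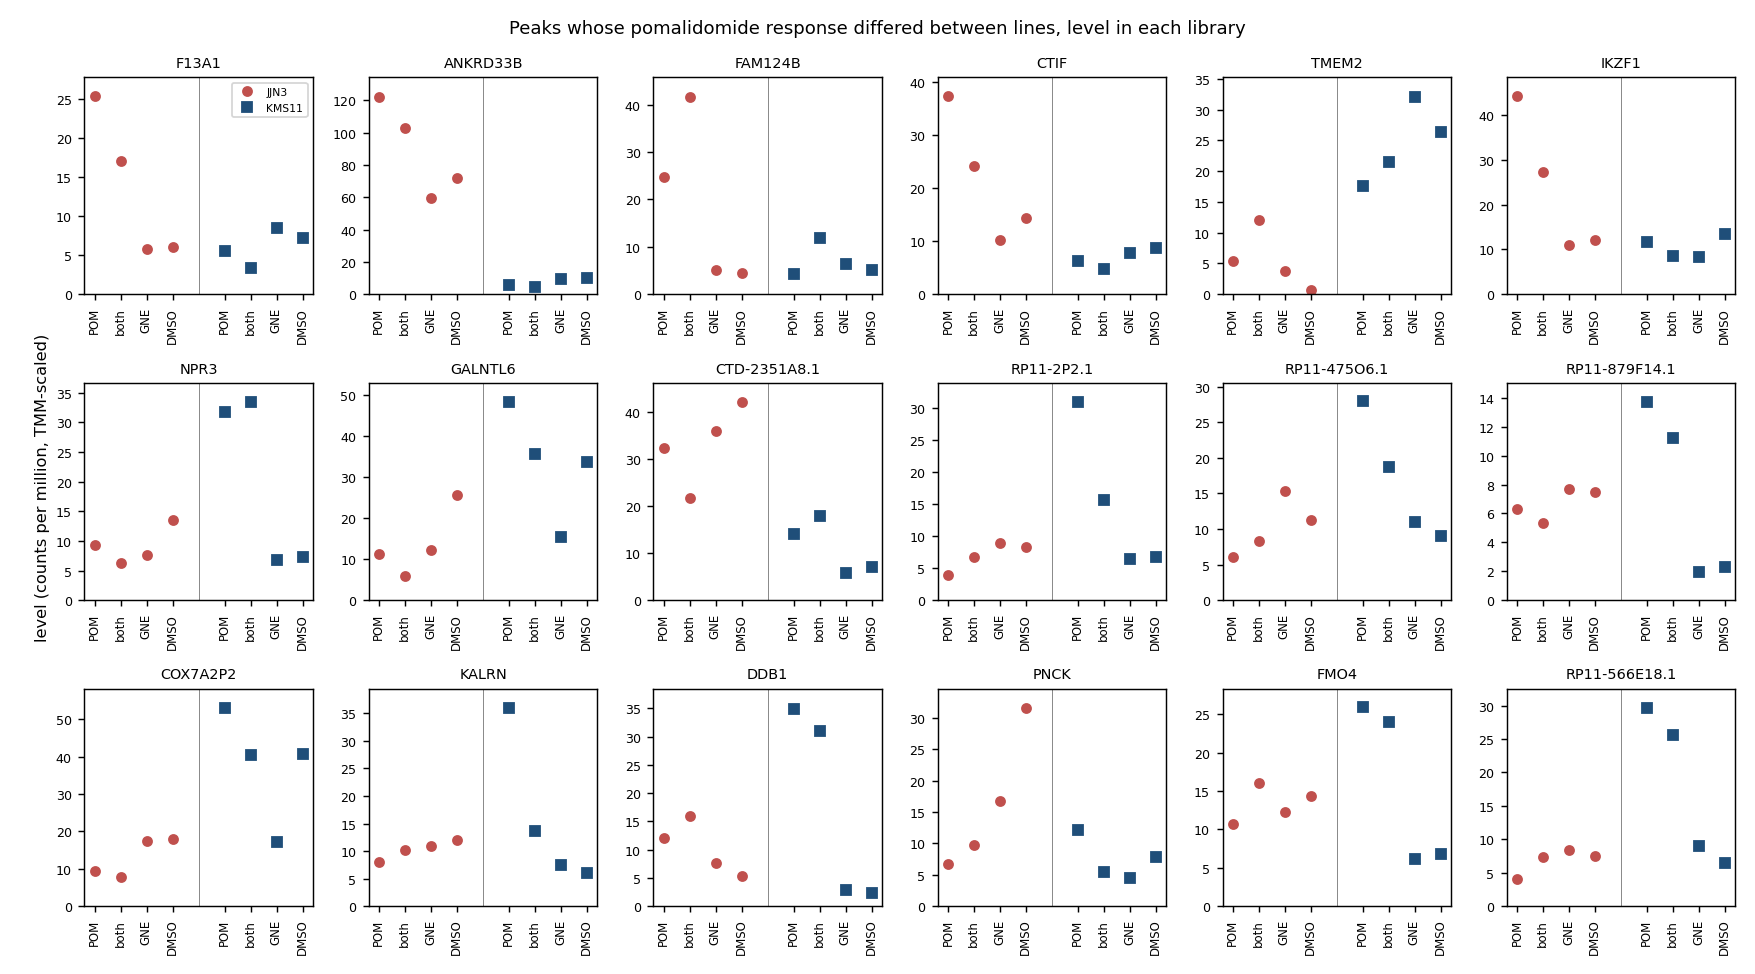
Level (TMM-scaled CPM) in each of the 8 libraries at the 18 named peaks with a called line difference in the pomalidomide response, JJN3 circles on the left of each panel and KMS11 squares on the right, with 1 point per library, "both" for the combination and no error bars. The first 6 panels have positive differences, such as F13A1 at 25.3 and 17.0 CPM in JJN3 with pomalidomide, and the other 12 have negative ones, such as NPR3 at 31.7 and 33.5 CPM in KMS11 with pomalidomide.

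Opposite responses, each called in its own line, were found at 4 peaks for pomalidomide and at none for GNE-781. GALNTL6, of the family that starts mucin-type O-glycosylation, had an intragenic peak at chr4:172750607-172751824 with 11.3, 5.82, 12.2 and 25.6 CPM in JJN3 with pomalidomide, both drugs, GNE-781 and DMSO, and 48.2, 35.6, 15.5 and 33.6 CPM in KMS11. It fell by 1.13 in JJN3 (SE 0.32, adjusted p = 0.0388) and rose by 0.80 ± 0.18 in KMS11 (adjusted p = 0.00145), with a difference of -1.93 ± 0.37 (adjusted p = 0.0109). In JJN3 all libraries with pomalidomide lie below those without it, but pomalidomide alone and GNE-781 alone had nearly the same level.

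ANKRD33B, an ankyrin repeat gene, had the reverse pattern at chr5:10631875-10632835. Levels were 122, 103, 59.6 and 72.2 CPM in JJN3 and 5.79, 4.63, 9.70 and 9.84 CPM in KMS11, so the groups with and without pomalidomide do not overlap in either line. It rose by 0.77 ± 0.18 in JJN3 (adjusted p = 0.00514) and fell by 0.90 in KMS11 (SE 0.29, adjusted p = 0.0430), with a difference of 1.67 ± 0.34 (adjusted p = 0.0265). Another ANKRD33B peak, chr5:10577597-10578483, rose in both lines, by 1.32 ± 0.24 in JJN3 (adjusted p = 9.96e-05) and 1.16 ± 0.20 in KMS11 (adjusted p = 7.64e-06). The 2 remaining opposite peaks, near BMPR1APS2 (3.31 ± 0.70) and RP11-293D9.2 (-2.72 ± 0.60), were at a mean of under 5 CPM in 1 of the lines and were called in 6 and 8 of 18 alternative settings in this order.

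GNE-781 gave 6 peaks with a called line difference (0.00964% of those tested), all positive, and all 6 responses were called in KMS11 alone. No negative difference passed in edgeR, against 1774 at an unadjusted p under 0.05 and 2671 positive ones. The median response of the 6 was 1.35 in JJN3, where none was called, and -1.23 in KMS11. These medians too describe peaks chosen for their difference. None of the 6 is a promoter peak. The count was 0 with TMM factors from distal peaks, with cyclic loess offsets, with limma-voom and with DESeq2, which had 478 peaks at an unadjusted p under 0.05. It was 1 without the JJN3 pomalidomide, the JJN3 combination or the KMS11 combination library, 2 without the KMS11 pomalidomide library, 3 without the JJN3 GNE-781 library and 10 without the JJN3 DMSO library.

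CCNE2 encodes cyclin E2, which drives entry into S phase with CDK2. A peak in the gene, chr8:94891121-94891476, in JJN3 had 28.9 CPM with GNE-781, 15.0 CPM with both drugs, 16.3 CPM with pomalidomide and 23.3 CPM with DMSO, and in KMS11 6.79, 6.94, 24.2 and 20.7 CPM. In JJN3 the groups overlap, while in KMS11 both libraries with GNE-781 lie far below the other 2. The response was 0.09 ± 0.27 in JJN3 (adjusted p = 0.949), and the peak fell by 1.72 in KMS11 (SE 0.25, adjusted p = 1.37e-06), with a difference of 1.81 ± 0.37 (adjusted p = 0.0386). That difference was called in 5 of 18 alternative settings, with a range of 1.6 to 2.03. At the CCNE2 promoter peak the difference was 0.04 ± 0.24 (adjusted p = 0.988), and at the third peak of the gene it was 0.22 ± 0.54 (adjusted p = 0.968).

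The other 3 named GNE-781 peaks are intergenic. That nearest to RP11-317P15.4, chr1:182611617-182612332, had 18.0 CPM with GNE-781, 17.9 CPM with both drugs, 9 CPM with pomalidomide and 16.5 CPM with DMSO in JJN3, and 32.0, 31.0, 56.2 and 81.3 CPM in KMS11. The response was 0.60 ± 0.31 in JJN3 (adjusted p = 0.498), and the peak fell by 1.08 in KMS11 (SE 0.17, adjusted p = 9.06e-06), with a difference of 1.69 ± 0.35 (adjusted p = 0.0386). Near AC093901.1, at chr2:118302860-118303255, the response was 1.38 ± 0.42 in JJN3 (adjusted p = 0.141) and -1.37 ± 0.35 in KMS11 (adjusted p = 0.0165), and the difference 2.75 ± 0.54 (adjusted p = 0.0304). There JJN3 had 16.0, 11.2, 1.67 and 11.3 CPM in the same order, so 1 library, JJN3 with pomalidomide, holds 5 reads and sets much of the JJN3 value: the difference was 2.05 from GNE-781 alone and 3.40 on top of pomalidomide. The peak nearest to a U8 small nucleolar RNA gene, chr9:38243998-38244396, had a difference of 2.5 ± 0.48 (adjusted p = 0.0304) with 3 reads in the JJN3 DMSO library.

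For the negative direction, the 5 peaks with the smallest p, none of which passed, were nearest to RP11-197B12.1 (-1.81 ± 0.41, adjusted p = 0.0813), RP11-3G20.2 (-1.76 ± 0.40, adjusted p = 0.0813), SRC (-1.71 ± 0.42, adjusted p = 0.144), AC007091.1 (-1.49 ± 0.37, adjusted p = 0.151) and RP11-554D13.1 (-1.61 ± 0.41, adjusted p = 0.153). SRC encodes a tyrosine kinase, and its peak chr20:37384799-37385115 lies at a promoter. It had 8.34 CPM with GNE-781, 5.82 CPM with both drugs, 15.0 CPM with pomalidomide and 18.0 CPM with DMSO in JJN3, and 17.8, 17.1, 12.2 and 12.9 CPM in KMS11. The treatments separate in each line, in opposite directions, but neither within-line response passed (adjusted p = 0.105 in JJN3 and 0.394 in KMS11). The next positive peak, nearest to ATP5F1P4, also missed the threshold (1.39 ± 0.30, adjusted p = 0.0602).

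**Figure D4:**
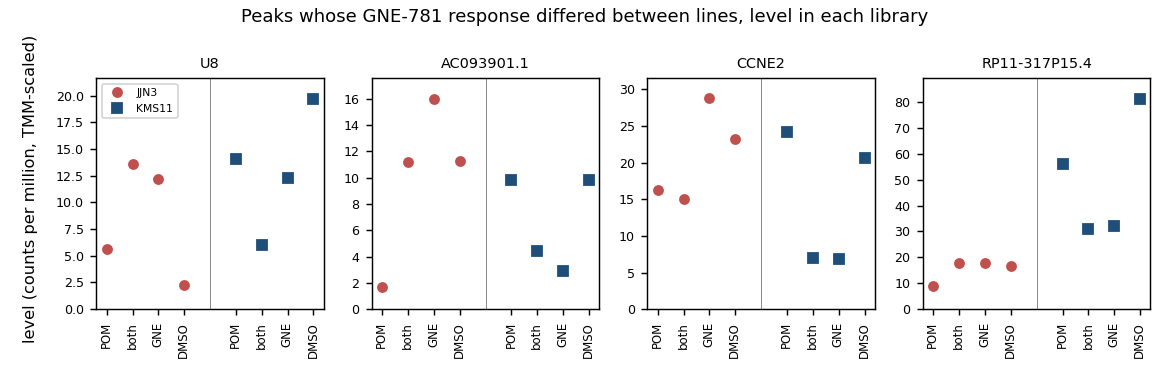
Level (TMM-scaled CPM) in each of the 8 libraries at the 4 named peaks with a called line difference in the GNE-781 response, JJN3 circles on the left of each panel and KMS11 squares on the right, with 1 point per library, "both" for the combination and no error bars. At CCNE2 the JJN3 libraries lie between 15.0 and 28.9 CPM, while in KMS11 those with GNE-781 sit at 6.79 and 6.94 CPM and the others at 20.7 and 24.2 CPM.

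**Figure D5:**
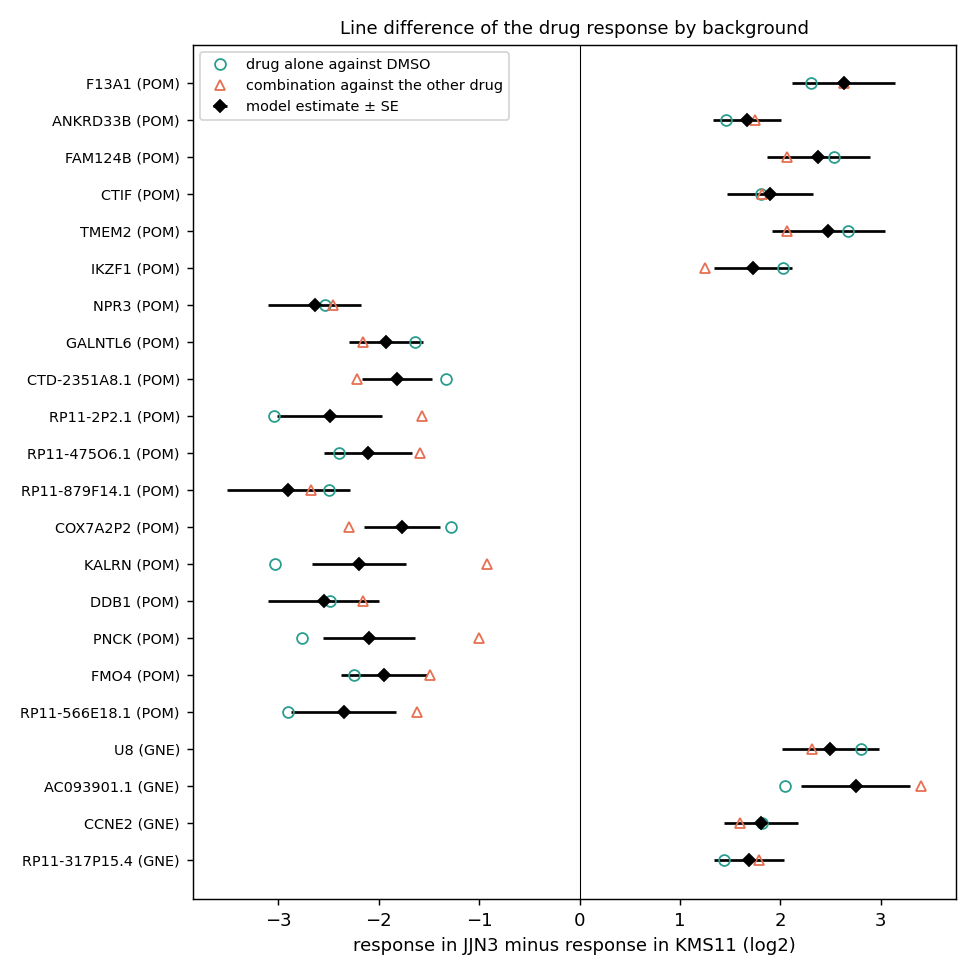
Response in JJN3 minus response in KMS11 (log2) for the 22 named called peaks, as fitted with its SE (diamonds), as computed from the drug alone against DMSO (circles) and from the combination against the other drug (triangles), POM and GNE naming the drug. The naming rule required circle and triangle on the same side of 0; the circle and triangle nearly coincide at NPR3 (-2.54 and -2.46) and lie far apart at KALRN (-3.03 and -0.92).

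Most peaks that answered a drug in 1 line did not have a called difference between the lines. With pomalidomide 760 peaks rose (1.22%) and 344 fell (0.553%) in JJN3, 1.77% in all. In KMS11 2854 rose (4.59%) and 1136 fell (1.83%), 6.41% in all. Of the rises 339 were shared, 44.6% of those of JJN3 and 11.9% of those of KMS11, and of the falls 35, 10.2% of those of JJN3 and 3.08% of those of KMS11. At the peaks that rose in JJN3 the median response was 1.35 in JJN3 and 0.74 in KMS11, and 87.2% were above 0 in KMS11, against 47.4% of all tested peaks. At those that rose in KMS11 it was 0.50 in JJN3 and 1.23 in KMS11, and 79.8% were above 0 in JJN3, against 50.6% of all. Without 1 of its own line's libraries, 113 to 177 peaks were called in JJN3 and 1439 to 1703 in KMS11. A called line difference was found at 10 of the 760 and at 25 of the 2854 rises, so a rise called in KMS11 alone is in general not a tested difference between the lines.

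With GNE-781, 26 peaks rose (0.0418%) and 81 fell (0.13%) in JJN3, 0.172% in all, and 13 rose and 81 fell there with TMM factors from distal peaks. In KMS11 138 rose (0.222%) and 841 fell (1.35%), 1.57% in all. Shared were 1 rise and 13 falls; those falls were 16.0% of the falls of JJN3 and 1.55% of those of KMS11. Where a peak fell in JJN3 the median response was -1.22 in JJN3 and -0.44 in KMS11, with 95.1% below 0 in KMS11, against 50.2% of all peaks. Where a peak fell in KMS11 it was -0.25 in JJN3 and -0.97 in KMS11, with 69.7% below 0 in JJN3, against 52.0% of all. Leaving out 1 JJN3 library left 0 to 15 calls in JJN3 (at least 4285 unadjusted in edgeR) and leaving out 1 KMS11 library gave 173 to 183 there, while 227 to 261 peaks were called in KMS11 without 1 of its libraries. None of the 107 peaks called in JJN3 had a called line difference, and 6 of the 841 falls in KMS11 did. Across 62234 peaks the Pearson correlation of the responses in the lines was 0.27 for pomalidomide and 0.16 for GNE-781, and across the 38543 peaks with a mean of at least 5 CPM in each line it was 0.39 and 0.22 in the same order. These are descriptions over peaks that share libraries.

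The neighbours of the called peaks were examined next. Within 100 kb of the 30 peaks with a negative pomalidomide difference lay 162 other tested peaks, of which 61.1% had a negative difference and 12.3% a negative one at an unadjusted p under 0.05, against 48.4% and 3.95% of all tested peaks. The 12.3% are 20 peaks, of which the CD9 and PLXNA2 peaks, with 14 neighbours each, supplied 4 each. At both of these called peaks the DMSO library stands apart among those of JJN3. Around the 12 positive ones lay 86 peaks, of which 54.7% had a positive difference, and 5.81% (5 peaks) at an unadjusted p under 0.05, against 51.6% and 4.04% of all tested peaks. Around the 6 GNE-781 peaks, 25 of 36 neighbours (69.4%) were positive and 2 (5.56%) at an unadjusted p under 0.05, against 49.7% and 4.29% of all tested peaks. No neighbour was itself called.

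Sums of counts over all peaks nearest to a gene gave 27 called differences for pomalidomide (0.107% of 25121 gene entries), 8 positive (0.0318%) and 19 negative (0.0756%), and 1 for GNE-781 (0.00398%). Among the 27, the sum is that of 1 peak at COX7A2P2, GFRA2, ENSG00000279348.1, RP11-293D9.2, SLC16A6 and 5_8S_rRNA. Those entries show no difference extending over several peaks. The GNE-781 entry was the transcript RP11-587H10.2, with 7 peaks and a difference of 1.04 ± 0.21 (adjusted p = 0.0432). The genes described next were picked out of the 27 after their values were seen and are not all of them. In size the largest difference of the 27 was that of GFRA2, -3.74 ± 0.82 (adjusted p = 0.0339), at 0.5 to 8.44 CPM in JJN3. C1orf112, with 3 peaks, had a difference of 1.26 ± 0.29 (adjusted p = 0.0339). Within the lines 320 gene sums were called for pomalidomide in JJN3 (1.27%) and 1101 in KMS11 (4.38%). PRDM16, a zinc finger transcription factor gene, summed over 4 peaks to 109 CPM with pomalidomide, 81.0 CPM with both drugs, 114 CPM with GNE-781 and 191 CPM with DMSO in JJN3, and to 85.1, 65.6, 65.4 and 60.1 CPM in KMS11. Its sum fell by 0.67 in JJN3 (SE 0.15, adjusted p = 0.00440), with 0.26 ± 0.14 in KMS11 and a difference of -0.93 ± 0.20 (adjusted p = 0.0339). All 4 peaks differed in the negative direction, but they share the same libraries. In JJN3 the DMSO library stands apart, and pomalidomide alone and GNE-781 alone had nearly the same sum. At the called PRDM16 peak the difference was -2.22 from pomalidomide alone and -0.19 on top of GNE-781.

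PLVAP, known for the diaphragms of endothelial fenestrae, summed over 4 peaks to 33.9, 34.5, 10.5 and 13.8 CPM in JJN3 with pomalidomide, both drugs, GNE-781 and DMSO, and to 18.1, 13.3, 18.4 and 14.4 CPM in KMS11. It rose in JJN3 by 1.5 ± 0.29 (adjusted p = 0.000973), with -0.07 ± 0.23 in KMS11 and a difference of 1.57 ± 0.37 (adjusted p = 0.0490). SLC2A7, of the facilitative sugar transporters, rose in JJN3 by 1.2 ± 0.22 (adjusted p = 0.000562) with a difference of 1.42 ± 0.33 (adjusted p = 0.0482), although its JJN3 levels with GNE-781 (16.3 CPM) and DMSO (44.5 CPM) lay far apart. SLC16A6, a monocarboxylate transporter family gene with 1 tested peak, had a response of 0.55 ± 0.23 in JJN3 (adjusted p = 0.271) and fell in KMS11 by 0.66 (SE 0.17, adjusted p = 0.0104), with a difference of 1.21 ± 0.29 (adjusted p = 0.0478). The same peak was not called in the test over peaks. LZTS1, a leucine zipper tumour suppressor gene, fell in JJN3 by 1.46 (SE 0.26, adjusted p = 0.000407), with -0.06 ± 0.20 in KMS11 and a difference of -1.41 ± 0.33 (adjusted p = 0.0478). Over promoter peaks alone 2 gene sums were called for pomalidomide, and over distal peaks alone 1. Without 1 JJN3 library 1 or 2 gene sums were called for pomalidomide. For GNE-781 the single call became 0 without the JJN3 pomalidomide or combination library or the KMS11 GNE-781 or DMSO library (at least 1369 unadjusted in edgeR), and 4 to 12 without another one.

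Gene lists for the drugs' pathways and for myeloma held 321 genes in 16 lists, of which 262 had a peak. Besides IKZF1 and DDB1 for pomalidomide and CCNE2 for GNE-781, no peak of a list gene had a called line difference, and no list gene had a called sum. The myeloma regulators, factors such as IRF4, MYC and PRDM1 that sustain the malignant plasma cell, had 151 peaks, with a median pomalidomide difference of 0.18, against 0.02 over all tested peaks, and 1 called positive difference, that of IKZF1. Within the lines 8 of these peaks rose in JJN3 and none fell, and 11 rose and 3 fell in KMS11 (5.30% and 9.27% in this order, against 1.77% and 6.41% of all peaks). With GNE-781 none of the 151 was called in JJN3, and 1 rose and 7 fell in KMS11 (5.30%, against 1.57% of all).

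IKAROS, cereblon ligase and coactivator genes had 53 peaks, with 1 positive and 1 negative called difference for pomalidomide, and none for GNE-781. Under pomalidomide 4 of these peaks rose in JJN3 (7.55%, against 1.77% of all peaks) and none fell. In KMS11 3 rose (5.66%, below the 6.41% of all peaks) and none fell. The JJN3 rises include the IKZF1 and IKZF3 peaks given above. Both genes are also among the myeloma regulators, so these lists share peaks and are not independent. The ETS and RUNX family had 140 peaks and no called difference. With pomalidomide 6 of them rose and none fell in JJN3 (4.29%, against 1.77% of all peaks). In KMS11 13 rose and 3 fell (11.4%, against 6.41% of all peaks). Such a KMS11 share is not particular to this list. It was 15% for T and NK cell markers, 12.5% for cell cycle genes and 11.8% for stromal and endothelial markers. For myeloid and erythroid markers it was 0%. NF-kB response genes had 64 peaks with a median pomalidomide difference of 0.17. Of these peaks 4 rose in JJN3 (6.25%, against 1.77% of all peaks). In KMS11 4 rose and 1 fell (7.81%, near the 6.41% of all peaks). Interferon response genes had 65 peaks with a median difference of -0.05. Cell cycle genes had 88 peaks with a median GNE-781 difference of 0.01 and 1 called, in CCNE2. With GNE-781 none of these cell cycle peaks was called in JJN3 and 5 fell in KMS11 (5.68%, against 1.57% of all peaks called). The share called there was similar for myeloma regulators (5.30%), plasma cell surface and secretion genes (4.35%) and apoptosis genes (4.12%). It was 0% for the IKAROS, cereblon ligase and coactivator genes. For the remaining lists the median pomalidomide difference lay between -0.24 (glucocorticoid, steroid and drug transport genes) and 0.22 (myeloid markers), and no difference was called.

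The list peaks nearest to the threshold are described by value only. In BCL2L1, which encodes the survival protein BCL-xL, the peak chr20:31712705-31713231 had 4.67, 2.42, 2.56 and 7.52 CPM in JJN3 with pomalidomide, both drugs, GNE-781 and DMSO, and 24.9, 25.8, 6.14 and 6.21 CPM in KMS11. The response was -0.50 ± 0.53 in JJN3 (adjusted p = 0.789), the peak rose in KMS11 by 2.03 ± 0.26 (adjusted p = 1.55e-09), and the difference of -2.53 ± 0.62 did not pass (adjusted p = 0.0712). In IL6R, the receptor for the myeloma growth factor interleukin 6, the peak chr1:154407344-154407760 rose in JJN3 by 1.36 ± 0.32 (adjusted p = 0.00782), with -0.13 ± 0.28 in KMS11 and a difference of 1.49 ± 0.43 (adjusted p = 0.179). KDR, a vascular growth factor receptor gene, had a peak with a difference of -1.94 ± 0.57 (adjusted p = 0.179). For GNE-781 the closest was a peak 399102 bp from RUNX2, a runt family factor, with a difference of 1.56 ± 0.37 (adjusted p = 0.0972). Next came a BCL2L1 peak, chr20:31708298-31709346, with 1.03 ± 0.28 (adjusted p = 0.261), and a peak in ZBTB20, a zinc finger factor gene, with 1.91 ± 0.53 (adjusted p = 0.276). In POU2AF1, a coactivator gene of the B lineage, the peak chr11:111371164-111371585 had a GNE-781 response of -0.49 ± 0.24 in JJN3 (adjusted p = 0.468) and fell by 2.12 in KMS11 (SE 0.37, adjusted p = 7.89e-05), with a difference of 1.63 ± 0.45 that did not pass (adjusted p = 0.276).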

How the data were processed

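The 8 ATAC-seq libraries were grouped by the cell line and treatment in their labels. The authors deposited raw counts per peak over 1 peak set, without normalization; the deposited table's name describes this set as the union of peaks from MACS2 at a q of 0.01. Per the submitters' processing notes reads were handled with Bowtie2 2.3.5.1, cutadapt 2.5, Trim Galore 0.6.4, MACS2 2.1.1.20160309, SAMtools 1.10 and R 4.1.2, and the build was GRCh38. How reads were counted, and how duplicates and the transposase offset were handled, is not given in the sources used here. Deeper libraries weigh more in a union of peaks, and PCR copies understate the counting error.

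A minimum mean CPM of 2 removed 294 peaks; the others were scaled by TMM and tested with the two-sided quasi-likelihood test of edgeR 4.0.16 in R 4.3.3, in a model with line, both drugs and the 2 line-by-drug terms, with 2 residual degrees of freedom and 153 prior ones. Gene sums were tested alike, and the scripts were tested on simulated data. Differences by background are log2 ratios with a prior count of 2. A promoter peak lies within 1000 bp of the start of its transcript in the authors' annotation, the other classes are in a gene and intergenic, and distal peaks carry the name of their nearest gene. Promoter sequences are from RefSeq (GRCh38.p14). Alternatives used limma 3.58.1 and DESeq2 1.42.0.

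The peaks compared and the gene lists were chosen with earlier results of these data known. Named peaks are, for each drug and direction, up to 12 called peaks with the smallest p among those at a mean of at least 5 CPM in each line and with the same sign in both backgrounds, 1 per gene, filled to 5 with peaks that did not pass. The rule also names called peaks of the gene lists, which were all among these, and peaks called in opposite directions, which added BMPR1APS2 and RP11-293D9.2. Of the list genes, 3 were matched by an older symbol.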

Additional observations from a re-analysis of the deposited data

Results flagged for a closer look

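The following peaks are listed because a test found their drug response to differ between the lines. The values are the response in JJN3 minus that in KMS11 on the log2 scale. For pomalidomide they were 2.63 at F13A1, 1.67 at ANKRD33B, 2.38 at FAM124B, 1.90 at CTIF, 2.48 at TMEM2 and 1.73 at IKZF1, and -2.64 at NPR3, -1.93 at GALNTL6, -1.82 at CTD-2351A8.1, -2.49 at RP11-2P2.1, -2.11 at RP11-475O6.1, -2.90 at RP11-879F14.1, -1.77 at COX7A2P2, -2.2 at KALRN, -2.55 at DDB1, -2.10 at PNCK, -1.95 at FMO4 and -2.35 at ENSG00000279348.1. For GNE-781 they were 2.5 at U8, 2.75 at AC093901.1, 1.81 at CCNE2 and 1.69 at RP11-317P15.4. These were named by the rule given with the processing. Opposite responses gave 3.31 at BMPR1APS2 and -2.72 at RP11-293D9.2. Picked after their values were seen were, for pomalidomide, -2.61 at CD9, -2.34 at PLXNA2, -2.16 at MGAT5 and 2.9 at PLCH1, and for GNE-781 3.47 at RNF219-AS1 and 3.55 at ZNF804A.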

How the results depend on the processing

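No paired analysis was possible because each line and treatment has 1 library and the labels carry no replicate numbers. None of the 28 peaks named by size of p, and none of the 8 further called peaks that are named, changed sign in any of 18 alternatives. The 28 were chosen for the same sign in both backgrounds, and the 8 had it too. The alternatives also reuse the same libraries, so a kept sign is largely set by the choice of peaks. Many calls were lost, and the cause was not tested. Of the 18 named pomalidomide peaks, all stayed called with DESeq2 size factors, with TMM from distal peaks, without a filter on low counts, with a mean CPM of at least 5 and with a shared pomalidomide by GNE-781 term. Called for pomalidomide, in place of 42 peaks, were 1 with cyclic loess offsets, 0 with DESeq2 (723 at an unadjusted p under 0.05), 1 with limma-voom, 21 with the GNE-781 interaction left out and 0 in libraries thinned to the smallest total (3985 unadjusted). For GNE-781, in place of 6, there were 0 each with distal TMM (4389 unadjusted), loess (4280), DESeq2 (478), limma-voom (4176), the pomalidomide interaction left out (3764) and thinning (3599). For either interaction, in place of 46, there were 25 with DESeq2 size factors, 25 with distal TMM, 3 with loess, 3 with limma-voom and 0 thinned (3935 unadjusted). Within lines, pomalidomide calls numbered 5 in JJN3 and 132 in KMS11 with DESeq2, 327 and 1724 with the shared drug term, and 440 and 767 thinned, in place of 1104 and 3990. GNE-781 calls numbered 0 in JJN3 and 0 in KMS11 with DESeq2 (1115 and 1043 unadjusted), 16 and 155 with the shared drug term, 14 and 33 thinned, in place of 107 and 979, and 36 in JJN3 with loess. Gene sums for pomalidomide, in place of 27, numbered 0 with DESeq2 (254 unadjusted), 1 with limma-voom, 16 with the shared drug term, 17 with the other interaction left out, 0 thinned (1713 unadjusted), 2 over promoter peaks and 1 over distal peaks. Those for GNE-781, in place of 1, numbered 3 with loess and 0 with DESeq2 size factors (1716 unadjusted), distal TMM (1759), DESeq2 (169), the shared drug term (1380), the other interaction left out (1488), thinning (1509) and distal peaks alone (1305).

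Leaving out 1 library at a time gave 1 to 52 calls for pomalidomide, 1 to 10 for GNE-781 and 5 to 70 for either, 1 to 38 and 0 to 12 gene sums for pomalidomide and GNE-781, 113 to 1275 pomalidomide calls in JJN3 and 1439 to 4276 in KMS11, and 0 to 183 GNE-781 calls in JJN3 and 227 to 1177 in KMS11. Named pomalidomide calls kept were 0 of 18 without JJN3 pomalidomide or JJN3 DMSO, 2 without either other JJN3 library, and 5 to 11 without a KMS11 library. Depth limits small differences: many JJN3 values rest on fewer than 20 reads.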

Other observations

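Some called pomalidomide peaks outside the naming rule lie in genes with familiar functions; they were picked after their values were seen, and each is given by value only. In CD9, a tetraspanin gene, the peak chr12:6216023-6216499 had 3, 3.88, 3.85 and 13.5 CPM in JJN3 with pomalidomide, both drugs, GNE-781 and DMSO, and 12.6, 17.3, 7.76 and 4.92 CPM in KMS11, with a line difference of -2.61 ± 0.57 (edgeR adjusted p = 0.0293). In JJN3 the DMSO library alone stands apart there. In PLXNA2, a semaphorin receptor gene, the difference at chr1:208166578-208167169 was -2.34 ± 0.52 (edgeR adjusted p = 0.0325), and 15 of the 18 tested PLXNA2 peaks had a negative difference. It was -3.79 from pomalidomide alone and -0.2 on top of GNE-781, and among JJN3 libraries the peak had 15.8 CPM with DMSO and 2.67 to 5.82 CPM otherwise. In MGAT5, a gene for an enzyme of N-glycan branching, it was -2.16 ± 0.49 (edgeR adjusted p = 0.0350), and in the phospholipase gene PLCH1 it was 2.90 ± 0.67 (edgeR adjusted p = 0.0469) at a peak with under 7 CPM in every KMS11 library.

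For GNE-781, the called peaks in RNF219-AS1 (3.47 ± 0.69, edgeR adjusted p = 0.0304) and ZNF804A (3.55 ± 0.75, edgeR adjusted p = 0.0465) had low levels in JJN3, 1.5 to 5.82 CPM at RNF219-AS1 and 0.752 to 7.76 CPM at ZNF804A. In JJN3 the ZNF804A peak had 1 read with DMSO and its highest level, 7.76 CPM, with both drugs.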
